A study of Mus musculus with 15 samples.

Results

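The 10 genes Gata2, Tal1, Lmo2, Runx1, Erg, Myb, Mycn, Hlf, Mecom and Prdm16 encode transcription factors of blood stem and progenitor cells, or the adaptor protein of such factors, and were followed in mouse bone marrow with acute myeloid leukaemia (AML) and in normal marrow. They were chosen by name, as the rows of the deposited table with these symbols, 10 of 38315 genes. RNA was sequenced in bulk from 15 marrow samples. The AML group held 7 marrows of the genotype NUP98-NSD1/FLT3-ITD, which combines a fusion of a nucleoporin gene with a histone methyltransferase gene and an internal tandem duplication in the receptor tyrosine kinase gene Flt3. The normal groups were wild-type whole marrow, with 4 samples, and wild-type lineage-negative marrow, with 4 samples, in which cells with surface antigens of mature lineages had been depleted. No treatment is named for any group, and age, sex, strain and the promoter behind each transgene are not given in the sources used here. Samples are numbered within each group, but it is not stated whether each came from a separate animal, so the p-values measure the spread between these samples.

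These factors work in connected complexes. GATA2 is a zinc finger factor of stem cells, early progenitors and mast cells, and hands over to its relative GATA1 as red cell and platelet precursors mature. TAL1 (also called SCL) is a basic helix-loop-helix factor that binds E-box sequences with an E protein such as TCF3, and LMO2 is the LIM-domain adaptor that joins TAL1 to LDB1 and to GATA factors. RUNX1 binds DNA with its partner CBFB and is needed for stem cells to form in the embryo. ERG is an ETS-family factor of stem cells, megakaryocytes and endothelium, with FLI1 as its closest relative. MYB drives proliferation of progenitors, and MYCN is the relative of MYC that is active in stem cells. HLF, MECOM (the EVI1 protein and its longer form) and PRDM16 are most restricted to the stem cell end of the hierarchy.

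All 10 genes were found by name with 1 row each, and the coordinates given here are from the GRCm38 annotation (GENCODE M21), matched by gene identifier. Gata2 (ENSMUSG00000015053) lies at chr6:88193891-88207032 on the plus strand, Tal1 (ENSMUSG00000028717) at chr4:115056426-115071755 on the plus strand and Lmo2 (ENSMUSG00000032698) at chr2:103957986-103981878 on the plus strand. The others are on the minus strand. Runx1 (ENSMUSG00000022952) lies at chr16:92601466-92826149, Erg (ENSMUSG00000040732) at chr16:95359169-95586593 and Myb (ENSMUSG00000019982) at chr10:21124935-21160984. Mycn (ENSMUSG00000037169) lies at chr12:12936093-12941914 and Hlf (ENSMUSG00000003949) at chr11:90336536-90390895. Mecom (ENSMUSG00000027684) spans chr3:29951296-30548008 and Prdm16 (ENSMUSG00000039410) spans chr4:154316125-154636873. The start positions in the deposited table differ from these for all 10 genes, although mm10 is the build named in the submitters' processing notes and the gene spans are equal for 10 of 10. Mecom overlaps 7 other annotated genes, Prdm16 overlaps 2, and Runx1, Myb and Lmo2 overlap 1 each. Strand use in counting is not given in the sources used here, so reads of such partners are not separated.

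The 250 bases upstream of 3 annotated starts are shown because they belong to the pair of genes with the largest falls in AML, Gata2 and Tal1, and to Erg, whose level in AML was close to that of whole marrow. They are RefSeq starts on GRCm38.p6, printed 5′ to 3′ on the strand of the gene: Gata2 at chr6:88193641-88193890, Tal1 at chr4:115056176-115056425 and an internal start of Erg at chr16:95459349-95459598. Capitals mark matches to a GATA motif (the letters GATA, with A or T before and A or G after them) or an ETS motif (AGGAAG or CGGAAG) on either strand.
Gata2: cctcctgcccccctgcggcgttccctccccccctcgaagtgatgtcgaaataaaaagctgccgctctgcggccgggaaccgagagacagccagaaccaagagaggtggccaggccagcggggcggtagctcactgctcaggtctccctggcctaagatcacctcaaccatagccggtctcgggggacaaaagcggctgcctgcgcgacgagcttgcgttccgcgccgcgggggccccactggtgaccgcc
Tal1: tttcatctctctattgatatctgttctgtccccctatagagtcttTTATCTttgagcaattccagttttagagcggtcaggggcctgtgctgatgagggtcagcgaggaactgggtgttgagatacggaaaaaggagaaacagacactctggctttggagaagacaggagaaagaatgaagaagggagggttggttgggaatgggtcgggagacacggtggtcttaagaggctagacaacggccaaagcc
Erg: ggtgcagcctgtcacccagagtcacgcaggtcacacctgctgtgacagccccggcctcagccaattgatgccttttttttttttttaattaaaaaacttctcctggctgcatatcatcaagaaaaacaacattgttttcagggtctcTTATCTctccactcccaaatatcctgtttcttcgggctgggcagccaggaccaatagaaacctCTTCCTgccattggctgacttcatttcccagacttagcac
In the Tal1 window the GATA match TTATCT begins 205 bases upstream of the start. In the Erg window a GATA match begins 103 bases upstream and an ETS match, CTTCCT, 40 bases upstream. The Gata2 window holds neither motif. These 3 genes have other annotated starts, and the windows of those starts hold neither motif. The Tal1 and Erg windows shown are thus the ones of their genes with a match. Over 15 such windows of 9 members, 4 held a GATA match and 3 an ETS match, against 26.6% and 39.2% of 32817 windows in the mouse genome. A further 3 motifs were searched on both strands. A RUNX motif (TGTGGT or TGCGGT) was in 0 of the 15 windows and in 18.6% of all windows, an E-box (CAGCTG or CAGATG) in 1 and in 25.5%, and a MYB motif (AACTG or AACGG) in 7 and in 48.6%. These are matches of letters in sequence, and no binding was measured.

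Values are the authors' normalized counts, estimated reads per gene divided by a size factor for each library. Estimated depth was 20.3 to 35.1 M reads (M, mega) in AML, 11.4 to 17.2 M reads in whole marrow and 20.3 to 28.1 M reads in lineage-negative marrow. Under the deposited scaling most genes lay higher than in whole marrow: the median log2 difference over all 18941 genes tested was 0.67 for AML and 0.59 for lineage-negative marrow against whole marrow, and 0.02 between AML and lineage-negative marrow. With the libraries scaled by a trimmed mean of M values (TMM) these medians were 0.01, −0.10 and 0.05, so differences from whole marrow are given under both scalings. Whole marrow also had reads over genes that marrow does not use. The level over 1750 olfactory and vomeronasal receptor genes was 1.88 to 3.54 normalized counts per kilobase of exon there, 0.0969 to 0.137 in lineage-negative marrow and 0.120 to 0.996 in AML, where replicate 6 was the highest and replicate 5 had 0.344. The labelled depletion is visible in the markers. A list of 7 neutrophil markers summed to 412800 to 1113720 normalized counts in whole marrow, 728 to 15999 in lineage-negative marrow and 385122 to 1332050 in AML.

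In AML the stem and progenitor factors stood below their level in lineage-negative marrow, and by very different amounts. By the ratio of group means Gata2 was 30.7-fold and Tal1 22.3-fold lower, Myb, Mecom and Hlf between 4.60- and 5.18-fold, and Mycn, Prdm16 and Lmo2 between 2.30- and 3.10-fold. Erg and Runx1, at 1.81- and 1.19-fold, were not called. A gene was called when its adjusted p (limma, Benjamini-Hochberg over 18941 genes) was under 0.05 and its log2 difference at least 1 in size. By this rule 8 of 10 members were lower in AML than in lineage-negative marrow and 0 were higher, where 12.5% of all genes tested were called lower and 17.7% higher. TMM scaling gave the same counts of members, beside 12% of genes lower and 18% higher. The median log2 difference of the 10 members was −1.97. For 7 of 10 members every AML library lay below every lineage-negative library, as it did for 17.6% of all genes. Mixed tissue was sequenced, so fewer cells that carry a transcript and less of it per cell cannot be told apart.

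Against whole marrow the log2 differences of 8 of the 10 genes were below 0 and those of Runx1 and Mycn above 0 under either scaling, and most were not called. Under the deposited scaling 1 member, Runx1, was called higher in AML and 2, Tal1 and Gata2, were called lower, where 27.3% of all genes were called higher and 11.3% lower. These shares moved with single whole marrow libraries. The count of genes called higher went from 5167 to 3165 without whole marrow replicate 1, and that of genes called lower from 2132 to between 1237 and 1315 without any 1 of the 4, when fewer genes were also tested. With TMM scaling 0 members were higher and 4 were lower, Tal1, Gata2, Mecom and Prdm16, beside 4.92% of genes higher and 15.8% lower. The median log2 difference of members was −0.22 under the deposited scaling and −0.90 with TMM. Between the normal groups, 7 of 10 members were higher in lineage-negative than in whole marrow and 0 were lower, where 33.1% of all genes were called higher and 17.2% lower. With TMM 4 members were higher, Gata2, Myb, Mycn and Hlf, beside 10.8% of genes higher and 24.8% lower. For 9 of 10 members every lineage-negative library lay above every whole marrow library, as it did for 41.1% of all genes, and the exception was Tal1. The 3 comparisons share samples in pairs, so their results are not independent of each other.

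**Figure D1:**
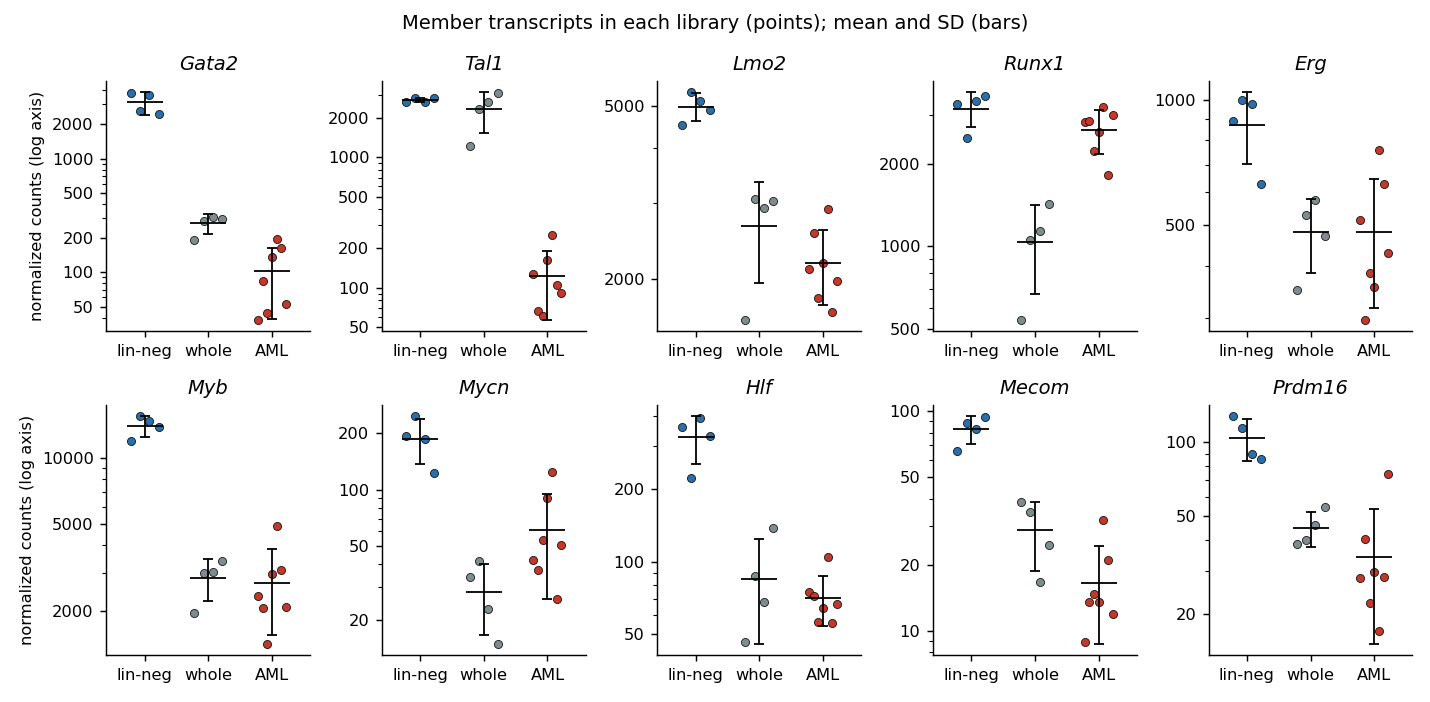
Normalized counts (log axis, separate for each gene) of the 10 members in each library, as points, with the mean and SD of each group as bars: lineage-negative marrow (n = 4), whole marrow (n = 4) and AML (n = 7). Gata2 falls stepwise from lineage-negative to whole marrow to AML, Tal1 is high in both normal groups and low in AML, and Runx1 is high in lineage-negative marrow and AML.

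Gata2 showed the largest fall of the 10 against lineage-negative marrow and, after Tal1, the next largest against whole marrow. It had 3803, 2617, 3623 and 2440 normalized counts in lineage-negative replicates 1 to 4, and 192, 283, 309 and 295 in whole marrow replicates 1 to 4. In AML the lowest library had 38.2, the median was 83.2 and the highest 194. All 7 AML libraries lay below all lineage-negative libraries, and 6 of 7 lay below all whole marrow libraries. Gata2 averaged 102 ± 62.8 (SD) over the 7 AML libraries, 270 ± 52.8 over the 4 whole marrow libraries and 3121 ± 692 over the 4 lineage-negative libraries. Against lineage-negative marrow the ratio of means was 30.7-fold, with a log2 difference of −5.15 (limma, SE 0.37, adjusted p = 1.58e-09). Against whole marrow Gata2 was lower by a log2 difference of −1.63 (limma, SE 0.37, adjusted p = 0.000994), or −2.30 with TMM. Lineage-negative exceeded whole marrow by a log2 difference of 3.52 (SE 0.42), or 2.82 with TMM, so whole marrow sat between the other groups.

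Tal1 followed another course: it was as high in whole marrow as in lineage-negative marrow, and low in AML alone. Whole marrow replicates 1 to 4 had 1229, 2353, 2664 and 3127 normalized counts, and lineage-negative replicates 1 to 4 had 2674, 2847, 2662 and 2834. The AML libraries ran from 60.0 through a median of 105 to 252. Every AML library was thus below every normal library, with the nearest whole marrow library at 1229. Tal1 averaged 123 ± 66.8 (SD) over the 7 AML libraries, 2343 ± 808 over the 4 whole marrow libraries and 2754 ± 99.7 over the 4 lineage-negative libraries. The log2 difference was −4.63 against lineage-negative marrow (limma, SE 0.32, adjusted p = 8.16e-10) and −4.32 against whole marrow (limma, SE 0.32, adjusted p = 9.11e-09), the latter −4.99 with TMM. Between the normal groups it was 0.31 (limma, SE 0.36, adjusted p = 0.456) and −0.39 with TMM (adjusted p = 0.305), so its sign depended on the scaling and no difference passed the test.

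The summed markers of red cell and platelet precursors, in which GATA and TAL1 complexes act, were also lowest in AML. Between the normal groups they did not all follow these genes, since the erythroid sum was higher in whole than in lineage-negative marrow. The sum of 7 erythroid markers was 2842 to 4836 normalized counts in AML, 42180 to 96337 in whole marrow and 17631 to 23494 in lineage-negative marrow. Of these markers, Tfrc alone had a mean of 3050 in AML. The sum of 7 megakaryocyte markers was 81.2 to 513 in AML, 643 to 1799 in whole marrow and 2168 to 3304 in lineage-negative marrow. Of these markers, Itga2b alone had means of 135, 462 and 2311 in the same order. Between the normal groups 1 of the 7 was called higher in lineage-negative marrow and 2 lower, where 33.1% of all genes were higher and 17.2% lower. For 7 mast cell and basophil markers the sums were 1863 to 7535, 4564 to 11268 and 24521 to 42737 in AML, whole and lineage-negative marrow. Hdc alone had a mean of 3137 in AML. None of these markers was at 0 in all libraries of a group. Of the erythroid list, 7 of 7 passed as lower in AML against whole marrow and 4 of 7 against lineage-negative marrow. For the megakaryocyte list these counts were 7 and 5, and for the mast cell and basophil list 5 and 5. With TMM the counts against whole marrow were 7, 7 and 6. Their part in the falls of Gata2 and Tal1 was not tested.

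Lmo2, the adaptor of the same complex, changed far less than its partners. Lineage-negative replicates 1 to 4 had 4522, 5387, 5154 and 4906 normalized counts, whole marrow replicates 1 to 4 had 1610, 3055, 2910 and 3032, and AML libraries ran from 1682 through a median of 2115 to 2900. Every AML library lay below every lineage-negative library. All lay within the range of whole marrow only through its replicate 1, at 1610, since the other whole marrow libraries were above every AML library. Replicate 1 was low over the table as a whole, with a TMM divisor of 0.472 against 0.790 to 0.816 in the other whole marrow libraries. Lmo2 averaged 2173 ± 426 (SD) over the 7 AML libraries, 2652 ± 697 over the 4 whole marrow libraries and 4992 ± 370 over the 4 lineage-negative libraries. Lmo2 was lower in AML than in lineage-negative marrow by a log2 difference of −1.22 (limma, SE 0.20, adjusted p = 4.04e-05). Against whole marrow the difference was −0.26 (adjusted p = 0.247 in limma), and with TMM −0.94 (adjusted p = 9.58e-06), under the fold limit of a call. As each library was left out under the deposited scaling, this difference ran from −0.49 to −0.18, with adjusted p from 0.0124 to 0.487 in limma. Lineage-negative marrow exceeded whole marrow by a log2 difference of 0.96 (adjusted p = 0.000907), just under that limit, and by 0.25 with TMM. It passed the limit, at 1.00 to 1.04, without whole marrow replicate 2, 3 or 4 or lineage-negative replicate 1.

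Runx1 was the member that AML shared with lineage-negative marrow. AML libraries ran from 1824 through a median of 2827 to 3209 normalized counts. Lineage-negative replicates 1 to 4 had 3305, 2486, 3368 and 3507, and whole marrow replicates 1 to 4 had 541, 1053, 1141 and 1426. All AML libraries lay above all whole marrow libraries, and 5 of 7 were within the range of lineage-negative marrow while 2 lay below it. Runx1 averaged 2651 ± 482 (SD) over the 7 AML libraries, 3166 ± 461 over the 4 lineage-negative libraries and 1040 ± 369 over the 4 whole marrow libraries. Against lineage-negative marrow the log2 difference was −0.27 (limma, SE 0.22, adjusted p = 0.356), which did not pass the test. Against whole marrow Runx1 was 2.55-fold higher, with a log2 difference of 1.41 (limma, SE 0.22, adjusted p = 4.03e-05). With TMM this became 0.73 (adjusted p = 0.000967), of the same direction but under the fold limit. Lineage-negative exceeded whole marrow by a log2 difference of 1.68 (SE 0.25), or 0.97 with TMM.

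Erg varied within AML by as much as it differed between groups. AML libraries ran from 297 through a median of 430 to 760 normalized counts. Whole marrow replicates 1 to 4 had 351, 529, 575 and 471, and lineage-negative replicates 1 to 4 had 890, 999, 977 and 629. AML libraries thus reached both below and above whole marrow, and 6 of 7 lay below all lineage-negative libraries. Erg averaged 482 ± 164 (SD) over the 7 AML libraries, 481 ± 96.9 over the 4 whole marrow libraries and 873 ± 170 over the 4 lineage-negative libraries. Against lineage-negative marrow the log2 difference was −0.90 (limma, SE 0.24, adjusted p = 0.00398), under the fold limit, and −1.02 without AML replicate 5 or −1.05 without lineage-negative replicate 4, when it was called. Against whole marrow it was −0.04 (adjusted p = 0.885 in limma) and −0.72 with TMM (adjusted p = 0.0123). Between the normal groups Erg was higher in the lineage-negative samples by a log2 difference of 0.86 (adjusted p = 0.00873), 0.15 with TMM, and this was called, at 1.01, without lineage-negative replicate 4. Endothelium also expresses Erg. The sum of 6 endothelial markers was 1129 to 2223 normalized counts in AML, 615 to 1055 in whole marrow and 2229 to 2473 in lineage-negative marrow. Most of it was Pecam1, with means of 1225, 693 and 2109 in the same order. Cdh5 (146, 43.1 and 5.18) and Kdr (132, 65.8 and 23.1) were lowest in lineage-negative marrow. Tek and Emcn were highest there, and Stab2 was highest in whole marrow. The part of endothelium in the Erg values was not tested.

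Myb was the most abundant member by normalized counts in lineage-negative marrow. Lineage-negative replicates 1 to 4 had 11986, 15459, 14780 and 13767 normalized counts, whole marrow replicates 1 to 4 had 1960, 3002, 3030 and 3395, and AML libraries ran from 1428 through a median of 2339 to 4919. Every AML library lay below every lineage-negative library, while AML spread to both sides of whole marrow. Myb averaged 2700 ± 1131 (SD) over the 7 AML libraries, 2847 ± 618 over the 4 whole marrow libraries and 13998 ± 1511 over the 4 lineage-negative libraries. Myb was lower in AML than in lineage-negative marrow by a log2 difference of −2.47 (limma, SE 0.25, adjusted p = 1.75e-07). Against whole marrow it differed by −0.14 (adjusted p = 0.631 in limma), or −0.82 with TMM (adjusted p = 0.00736), under the fold limit. Lineage-negative exceeded whole marrow by 2.32 (SE 0.29), or 1.61 with TMM. The overlapping gene Gm26577 had means of 58.9 normalized counts in AML, 57.7 in whole marrow and 108 in lineage-negative marrow, small beside Myb.

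Mycn was scarce in all groups and its AML libraries were widely spread. AML replicates ran from 25.9 through a median of 50.7 to 124 normalized counts, lineage-negative replicates 1 to 4 had 193, 248, 186 and 123, and whole marrow replicates 1 to 4 had 34.1, 41.5, 23.0 and 15.01. The highest AML library reached the lowest lineage-negative library, and 5 of 7 AML libraries lay above all whole marrow libraries. Mycn averaged 60.5 ± 34.4 (SD) over the 7 AML libraries, 28.4 ± 11.7 over the 4 whole marrow libraries and 188 ± 50.9 over the 4 lineage-negative libraries. Mycn was lower in AML than in lineage-negative marrow by a log2 difference of −1.75 (limma, SE 0.38, adjusted p = 0.000869). Against whole marrow the difference was 0.99 (limma, SE 0.38, adjusted p = 0.03), just under the fold limit, 0.32 with TMM and 1.48 with the receptor gene background subtracted, when it was called. Leaving out AML replicate 1, 2 or 6 or whole marrow replicate 1 or 2 brought it past the limit, with values of 1.04 to 1.20. Lineage-negative exceeded whole marrow by 2.73 (SE 0.43), or 2.04 with TMM.

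Hlf, Mecom and Prdm16, the genes most tied to the stem cell itself, were the lowest of the 10 per kilobase in lineage-negative marrow and AML, while in whole marrow Mycn lay below Hlf. Hlf had 359, 222, 390 and 330 normalized counts in lineage-negative replicates 1 to 4, 46.7, 87.1, 67.8 and 138 in whole marrow replicates 1 to 4, and 55.5 to 105 in AML with a median of 66.9. AML and whole marrow overlapped, and both lay below all lineage-negative libraries. Hlf averaged 70.7 ± 16.7 (SD) over the 7 AML libraries, 84.8 ± 39.0 over the 4 whole marrow libraries and 326 ± 73.2 over the 4 lineage-negative libraries. Hlf was lower in AML than in lineage-negative marrow by a log2 difference of −2.19 (limma, SE 0.28, adjusted p = 2.62e-06). Against whole marrow the difference was −0.18 (adjusted p = 0.583 in limma), or −0.85 with TMM. Between the normal groups Hlf was higher in lineage-negative marrow by 2.01 (SE 0.31), or 1.31 with TMM.

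Mecom rested on few reads, and in whole marrow its level was no higher than background. Lineage-negative replicates 1 to 4 had 66.3, 88.1, 82.8 and 94.6 normalized counts, whole marrow replicates 1 to 4 had 38.6, 34.8, 16.7 and 24.6, and AML libraries ran from 8.91 through a median of 13.5 to 32.1. All 7 AML libraries lay below all lineage-negative libraries, and 5 of 7 lay below all whole marrow libraries. The AML values stood for 7 to 34 estimated reads. The receptor gene level would by itself place 23.3 to 44.0 normalized counts on the exons of Mecom in whole marrow, and the mean there, 28.7 ± 9.95 (SD, n = 4), was 0.917 times the expected mean. Only 2 of 4 whole marrow libraries were above their own background, against 7 of 7 AML libraries and 4 of 4 lineage-negative libraries. Mecom averaged 16.5 ± 7.78 (SD) over the 7 AML libraries and 83.0 ± 12.1 over the 4 lineage-negative libraries. Mecom was lower in AML than in lineage-negative marrow by a log2 difference of −2.35 (limma, SE 0.35, adjusted p = 1.56e-05), and by −2.69 with background subtracted. The comparison with whole marrow turned with the processing: −0.80 as deposited (adjusted p = 0.0522 in limma), −1.45 with TMM (adjusted p = 0.00494) and 2.68 with background subtracted (adjusted p = 0.000228). It was called lower as deposited, at −1.02, without whole marrow replicate 3. The antisense gene Mecomos had means of 14.0 normalized counts in whole marrow, 1.11 in AML and 0.441 in lineage-negative marrow. Of the normal groups, lineage-negative marrow had more Mecom, by 1.56 (limma, SE 0.39, adjusted p = 0.00186), 0.87 with TMM, when it was not called, and 5.36 with background subtracted. Whole marrow replicates 1 and 3 lay below their background, at 38.6 against 44.0 and 16.7 against 28.9, and were set to 0 by the subtraction. The sizes of 2.68 and 5.36 thus depend on this floor and on the pseudocount.

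Prdm16, the relative of Mecom with the same type of domain, had a like order of group means in the deposited values. For both genes the order of AML and whole marrow turned with background subtracted. Lineage-negative replicates 1 to 4 had 128, 115, 89.9 and 85.5 normalized counts, whole marrow replicates 1 to 4 had 38.6, 40.2, 45.9 and 54.6, and AML libraries ran from 17.0 through a median of 28.4 to 74.4. The highest AML library, replicate 7, lay above all whole marrow libraries, 5 others lay below them, and all 7 were below lineage-negative marrow. Prdm16 averaged 34.3 ± 19.1 (SD) over the 7 AML libraries, 44.8 ± 7.22 over the 4 whole marrow libraries and 104 ± 20.2 over the 4 lineage-negative libraries. Prdm16 was lower in AML than in lineage-negative marrow by a log2 difference of −1.70 (limma, SE 0.33, adjusted p = 0.000295). Against whole marrow it was −0.51 (adjusted p = 0.186 in limma), −1.17 with TMM, when it was called lower (adjusted p = 0.00901), and 0.61 with background subtracted. The whole marrow mean was 1.91 times the background level expected over Prdm16, against 3.43 times for Mycn and 5.05 times for Hlf. Lineage-negative exceeded whole marrow by 1.20 (limma, SE 0.37, adjusted p = 0.00892) and by 0.50 with TMM, when it was not called.

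**Figure D2:**
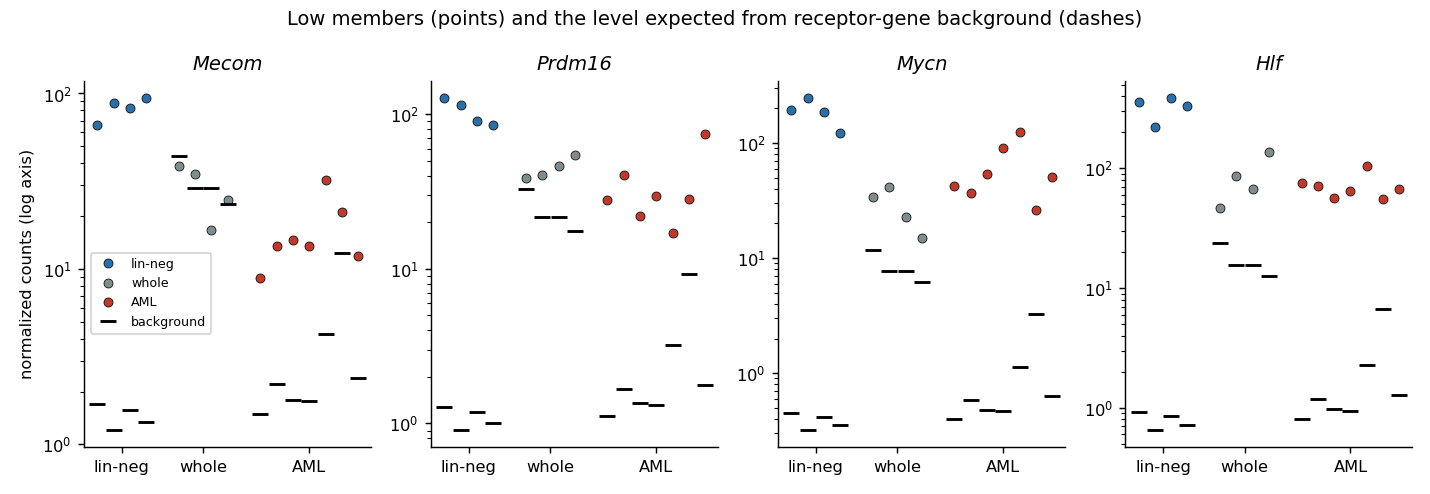
Normalized counts (log axis) of Mecom, Prdm16, Mycn and Hlf in each library, as points, with the level expected from reads over receptor genes and the exon length of the gene, as dashes; libraries run from replicate 1 on within lineage-negative marrow, whole marrow and AML. In whole marrow the points of Mecom lie at the dashes, between 16.7 and 38.6 normalized counts, while those of lineage-negative marrow lie far above them.

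**Figure D3:**
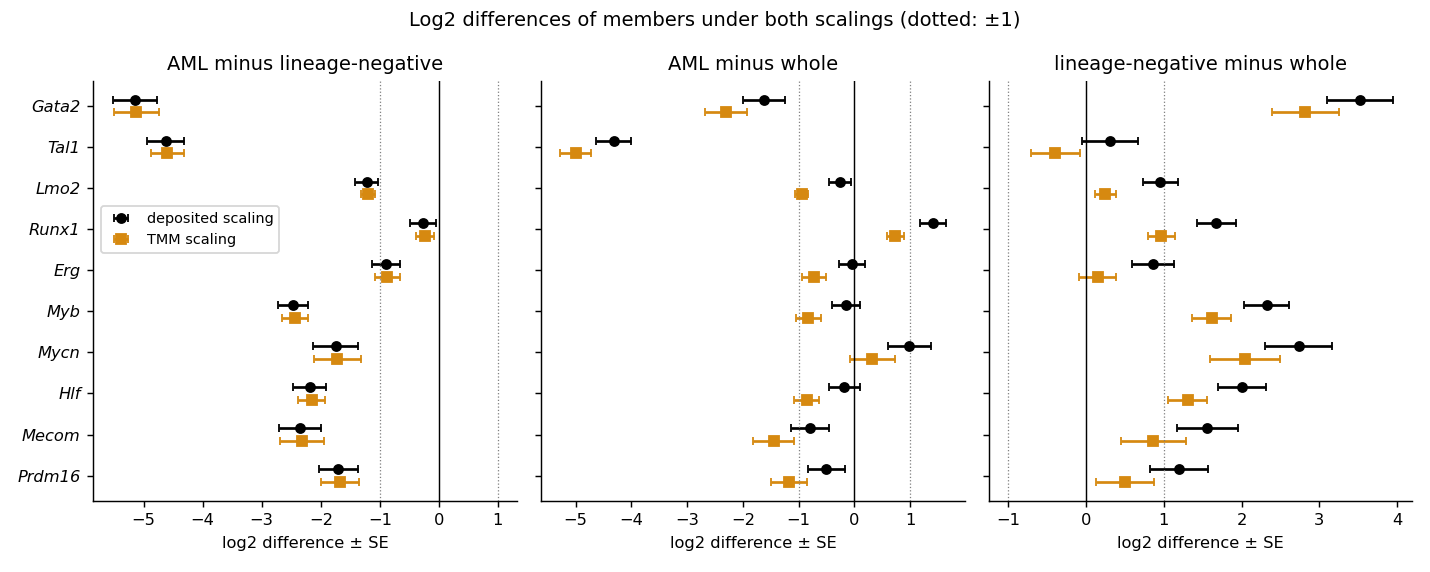
Log2 differences of the 10 members with their SE, from limma, for AML minus lineage-negative, AML minus whole and lineage-negative minus whole marrow, with the deposited scaling (circles) and TMM scaling (squares); dotted lines mark a difference of 1 in size. The scalings give nearly the same values between AML and lineage-negative marrow, and TMM lowers every member in the comparisons with whole marrow.

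Levels of different genes were compared as mean normalized counts per kilobase of exon. In lineage-negative marrow the order was Lmo2 (2305), Myb (1567), Tal1 (629), Gata2 (578), Runx1 (263), Erg (252), Mycn (56.9), Hlf (48.7), Prdm16 (11.2) and Mecom (6.68). In AML Runx1 (220) and Erg (139) stood above Tal1 (28.2) and Gata2 (18.9), with Lmo2 (1003) and Myb (302) still at the top and Mycn (18.4), Hlf (10.6), Prdm16 (3.68) and Mecom (1.33) at the bottom. In whole marrow Tal1 (535) was second to Lmo2 (1224), followed by Myb (319), Erg (139), Runx1 (86.5), Gata2 (49.9), Hlf (12.7), Mycn (8.62), Prdm16 (4.81) and Mecom (2.31). Neighbours such as Runx1 and Erg in lineage-negative marrow, or Gata2 and Mycn in AML, differed by less than the spread of their libraries. The AML group was also the one in which members varied most: the median SD of log2 values over the 10 members was 0.57, against 0.41 over all genes tested. In lineage-negative marrow it was 0.25 against 0.33, and in whole marrow 0.49 against 0.48.

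In the ratio of a member to a partner or relative in the same library the scaling factor cancels, except for its effect beside the pseudocount of 1 added to each value, which is largest for low genes. Log2 ratios of 9 such pairs were compared between each pair of groups by exact two-sided permutation tests, 27 tests with p-values that are not adjusted. The smallest possible p was 0.00303 with AML and 0.0286 between the normal groups. Tal1 to Lyl1, its closest relative, showed the widest contrast: the mean log2 ratio was −4.45 in AML, 1.01 in whole marrow and 0.48 in lineage-negative marrow. Lyl1 thus exceeded Tal1 by 21.9-fold in AML in counts, which are not scaled by exon length. The difference in the ratio had an exact p of 0.00303 in the permutation test against either normal group, with all 7 AML libraries below all normal ones. Per kilobase of exon the mean of Lyl1 was above that of Tal1 in every group. It was 1373 against 28.2 in AML, 643 against 535 in whole marrow and 1143 against 629 in lineage-negative marrow. Lyl1 itself had means of 2471 normalized counts in AML, 1157 in whole marrow and 2057 in lineage-negative marrow.

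Gata2 exceeded Gata1 in AML, where the mean log2 ratio was 2.11, and fell short of it in whole marrow, at −1.53. In lineage-negative marrow the ratio was 0.92 in counts, but per kilobase of exon the mean of Gata2, 578, was below that of Gata1, 665. The exact p was 0.00303 against whole marrow, with 7 of 7 AML libraries above, and 0.0364 against lineage-negative marrow, with 6 of 7 above and 1 below. Gata1, the later factor of red cell, platelet and mast cell precursors, had means of 22.4 normalized counts in AML, 808 in whole marrow and 1621 in lineage-negative marrow, so the ratio in AML was one of 2 low values.

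Hlf to Tef, a relative of the same basic leucine zipper group, had a mean log2 ratio of −2.80 in AML, −1.27 in whole marrow and −0.77 in lineage-negative marrow, with an exact p of 0.00303 in both comparisons with AML. Erg to Fli1 was −2.81, −2.33 and −1.31 in the same order, with an exact p of 0.0394 against whole marrow and 0.00303 against lineage-negative marrow. Fli1 was therefore the more abundant of that pair in counts in every group. Myb to Mybl2, a relative tied to the cell cycle, was 2.06 in AML, 1.86 in whole marrow and 3.40 in lineage-negative marrow, with an exact p of 0.248 against whole marrow and 0.00303 against lineage-negative marrow. Lmo2 to Ldb1 was 0.29, 1.26 and 0.37, and AML differed from whole marrow with an exact p of 0.00303 but not from lineage-negative marrow, where p was 0.709. Runx1 to Cbfb was −0.41, −0.83 and 0.20, with an exact p of 0.0242 and 0.0364. Mycn to Myc, at −4.39, −4.26 and −5.04, had an exact p of 0.797 and 0.142, and Mecom to Prdm16, at −0.97, −0.68 and −0.32, had an exact p of 0.655 and 0.294. With 1 library left out at a time, the exact p of Gata2 to Gata1 against lineage-negative marrow reached 0.0833 and that of Erg to Fli1 against whole marrow 0.108. That of Runx1 to Cbfb reached 0.0833 against whole marrow and 0.125 against lineage-negative marrow.

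**Figure D4:**
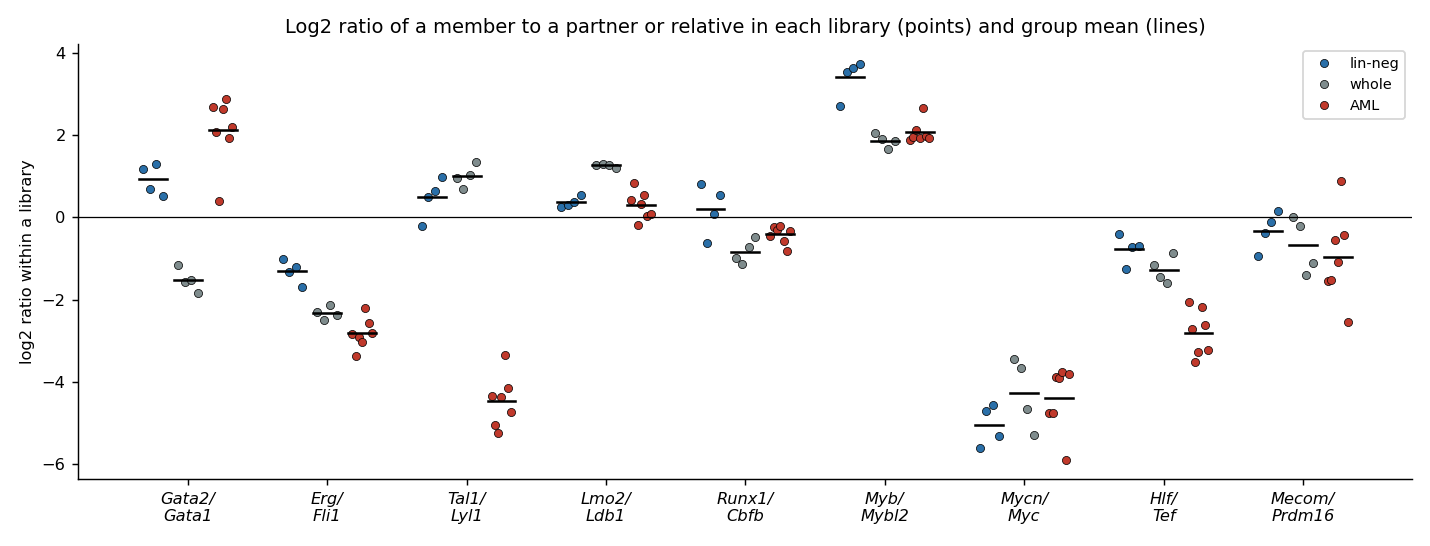
Log2 ratio of a member to a partner or relative within each library, as points, with group means as lines, for lineage-negative marrow (n = 4), whole marrow (n = 4) and AML (n = 7). The Tal1 to Lyl1 ratio is separated the most, with AML at a mean of −4.45 and both normal group means above 0. Ratios are of counts not scaled by exon length.

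The other genes of these networks were described in 4 lists. Of all genes tested, 17.7% were called higher and 12.5% lower in AML than in lineage-negative marrow. Against whole marrow these shares were 27.3% and 11.3%, or 4.92% and 15.8% with TMM. Between the normal groups 33.1% were higher in lineage-negative marrow and 17.2% lower, or 10.8% and 24.8% with TMM. Several counts of the lists lay near these shares. Of 12 complex partners, 1 was called higher and 4 lower in AML than in lineage-negative marrow. Zfpm1 (FOG1), the cofactor of GATA factors, was the lowest, with a log2 difference of −4.05 (205 against 2773 normalized counts), and Spi1, the ETS factor PU.1 of myeloid cells, was the one that rose, by 1.83 (5608 against 1573 normalized counts). Ldb1, Ssbp3 and Tcf3 fell by 1.14, 1.37 and 1.10 on the log2 scale. Against whole marrow 3 partners were higher and 1 lower, and 1 and 2 with TMM. Zfpm1 was again the lowest, at −3.37, or −4.05 with TMM, and Cbfa2t3 (ETO2), the corepressor of TAL1 complexes, the highest, at 2.22, or 1.55 with TMM. Between the normal groups 4 partners were higher in lineage-negative marrow and 0 lower, but 2 were higher and 2 lower with TMM. The median log2 difference of the list was −0.29 against lineage-negative marrow and 0.67 against whole marrow, beside 0.02 and 0.67 for all genes. With TMM the median against whole marrow was −0.01, beside 0.01 for all genes.

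Of 15 close relatives, 3 were called higher and 3 lower in AML than in lineage-negative marrow, and 7 and 2 against whole marrow, or 3 and 3 with TMM. Gata1 was the lowest in both, with log2 differences of −6.35 and −5.27, and Mycl, the third member of the Myc family, the highest in both, at 2.20 and 2.56. With TMM the differences from whole marrow were −5.94 for Gata1 and 1.89 for Mycl. Lmo1, the relative of Lmo2, was higher in AML than in either normal group, at 1.83 and 1.74 (1.07 with TMM), with 422 normalized counts in AML, 123 in lineage-negative and 132 in whole marrow. Myc fell by 2.40 on the log2 scale against lineage-negative marrow and was higher than in whole marrow by 1.11, or 0.43 with TMM, when it was not called. The median of the list was 0.31 against lineage-negative marrow and 0.91 against whole marrow, or 0.24 with TMM.

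Of 16 other stem cell regulators, 14 passed the filter on low values and Tcf15 and Hoxb5 did not. In AML 0 were higher and 8 lower than in lineage-negative marrow, namely Gfi1b, Hmga2, Zfp521, Meis1, Mllt3, Msi2, Ikzf2 and Nfix, with log2 differences of −5.60 for Gfi1b and −1.15 for Nfix at the ends. Meis1, a homeobox partner of HOX proteins, had 254 normalized counts in AML, 1055 in lineage-negative and 162 in whole marrow. Against whole marrow Etv6 was called higher, at 1.44, and Gfi1b lower, at −4.29. With TMM 0 were higher and 3 lower, with Etv6 at 0.76 and Gfi1b at −4.96. Between the normal groups 9 were higher in lineage-negative marrow, 6 with TMM, and 0 lower. The median of the 14 was −1.15 against lineage-negative marrow and 0.55 against whole marrow, or −0.12 with TMM.

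Of 16 genes known as direct targets of these factors, 1 was called higher and 9 lower in AML than in lineage-negative marrow, and 3 and 7 against whole marrow, or 2 and 8 with TMM. Klf1, the master factor of red cell genes, was the lowest in both, with log2 differences of −6.92 and −6.62 (−7.28 with TMM), and means of 17.2 normalized counts in AML, 1839 in lineage-negative and 1531 in whole marrow. Epor, Gata1, Gfi1b, Cpa3 and Itga2b were among those also lower in both. Csf1r, the receptor of macrophage colony-stimulating factor, was the highest in both, at 1.92 and 2.29 (1.61 with TMM), with 11172 normalized counts in AML, 2881 in lineage-negative and 2261 in whole marrow. Kit, the receptor of stem cell factor, had 1057, 6073 and 749 normalized counts in the same order and was lower than in lineage-negative marrow by a log2 difference of −2.62. The median of the list was −2.51 against lineage-negative marrow and −0.21 against whole marrow, or −0.89 with TMM. Gfi1b, Gata1, Myc and others stand in more than 1 list, so the lists are not separate.

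The genes with the most similar profiles were found by the root mean square difference of log2 values over the 15 libraries, each gene centred on its own mean, among 11336 genes. They were Sdsl and Cyp11a1 for Gata2, Cracd and Mboat2 for Tal1, Blm and Strbp for Lmo2, Tgs1 and Pkp4 for Runx1, and Susd1 and Rpia for Erg. Jcad was among them for Myb. For Mycn they were Thsd1 and Kif17, for Hlf Nedd4 and Myo19, for Mecom Pxmp2 and Bicd1, and for Prdm16 Cnnm2 and Acss2. Tgs1 differed from Runx1 by 0.17 on the log2 scale, where the median gene was at 0.56. For Tal1, Cracd was at 0.50 and Mboat2 at 0.59, where the median gene was at 2.51. The measure grows with how widely a gene itself varies, so the distances do not rank the members. Cracd had means of 30.5 normalized counts in AML, 364 in whole marrow and 546 in lineage-negative marrow, the same steep fall in AML from a high level in both normal groups. All libraries share the scaling of the table, which these likenesses include.

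Within AML the members tended to peak in the same library. AML replicate 5 had the highest value of the 7 for 9 of 10 members, among all but Prdm16, where it was the lowest and replicate 7 the highest. It was the highest for 18.4% of all genes tested, and with TMM for 12.9% of genes and again for 9 members. Tal1 had 252 normalized counts in replicate 5 and 60.0 to 162 in the others, Myb 4919 against 1428 to 3103, and Mycn 124 against 25.9 to 90.4. Gata2 had 194 in replicate 5, followed by 163 in replicate 6 and 137 in replicate 4. Replicate 5 was also the highest AML library for 5 of 7 mast cell and basophil markers, 4 of 7 megakaryocyte markers and 1 of 7 erythroid markers. For stem and progenitor markers this count was 2 of 8, for endothelial markers 2 of 6, and for B cell, T and NK cell and neutrophil markers 0. By summed level, however, replicate 5 was the highest AML library for stem and progenitor markers (9511 normalized counts), endothelial markers (2223) and megakaryocyte markers (513). Pecam1 alone made up 1933 of its endothelial sum. For mast cell and basophil markers its sum, 5114, was below those of replicate 6 (7535) and replicate 1 (6565). Most of those sums was Hdc, at 5968 in replicate 6 and 5880 in replicate 1, against 1942 in replicate 5. Hdc and Gzmb were the markers of that list not highest in replicate 5. The summed stem and progenitor markers ran from 4710 to 9511 normalized counts in AML, 1437 to 3091 in whole marrow and 10813 to 17253 in lineage-negative marrow. The part of other cells or of the library in the values of replicate 5 was not tested. Without replicates 5 and 6 together, a choice made after the data had been seen, the count of members lower than in lineage-negative marrow was 9 in place of 8, with Erg added at −1.14.

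**Figure D5:**
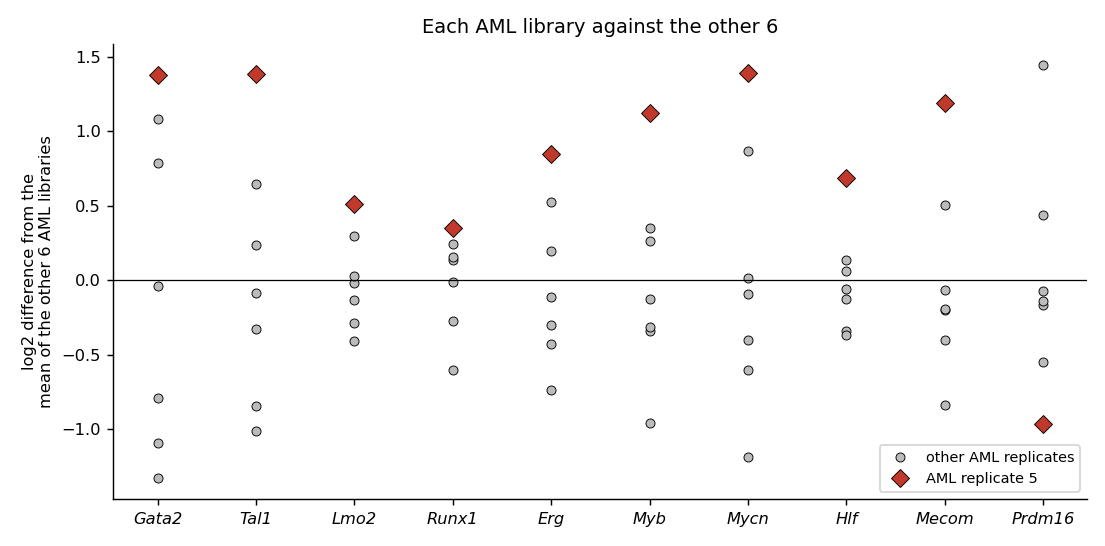
Log2 value of each AML library minus the mean log2 value of the other 6, for the 10 members; red diamonds mark replicate 5 and grey circles the other replicates. Replicate 5 is the highest for 9 of 10 members and the lowest for Prdm16.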

How the data were processed

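Total RNA of 15 mouse marrows, isolated with TRIzol, was turned into TruSeq Stranded Total RNA libraries, as described in the labels' protocols. The values are a signal as the authors deposited it, normalized counts: estimated reads of each gene over a DESeq2 size factor (type poscounts) of the library, going by the name of the table. Partek, STAR, DESeq2 and mm10 are named in the submitters' processing notes, without versions. Between 77.9% and 84.7% of low values in a library were whole multiples of the value of 1 read, within a tolerance of 0.02 of a read, so whole reads were not recovered and no count model was run. This step gave the estimated depths, and a floor of 3 reads corresponded to 1.96 to 4.09 normalized counts. Floors cover counting error only.

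Genes with at least 10 normalized counts in at least 4 samples were kept, 18941 of 38315, among them all 10 members. Values plus a pseudocount of 1 were taken to log2, and one fit of 3 group means over all samples was made in limma 3.58.1 (R 4.3.3, empirical Bayes with a trend, two-sided), with Benjamini-Hochberg adjustment over the genes kept. Log2 differences are on this log2(value + 1) scale, which understates changes of low genes. The fit was tested on simulated data. Exonic lengths came from GENCODE M21. Background per kilobase, from 1750 olfactory and vomeronasal receptor genes, was subtracted in one alternative, with values below 0 set to 0. TMM factors were computed by a reimplementation. Settings varied were the pseudocount (0.1 and 5), the filter (all genes above 0, or a mean of 50 and more), the scaling (TMM or median-centred libraries), background subtraction, 2 groups in the fit, a replicate block and leaving out each library. Removing AML replicates 5 and 6 together was added after the data had been seen.

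The members, the gene lists, the ratios and the tests were chosen with earlier results of these data known. All members are named in every comparison, and of each list at least the highest and the lowest called gene in each comparison with AML. The 2 most similar genes per member were taken among 11336 genes with a symbol and a mean of at least 50 normalized counts, and a few genes that these rules name are not reported here. The labels name no batch.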

Additional observations from a re-analysis of the deposited data

Results flagged for a closer look

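Each member's values within each group were examined for a library standing apart from the others, by the gap to its neighbour over the range of the group at Dixon's 95% critical value. Of 30 groups of values, 3 had one, where chance gives about 1 in 20. Hlf had 105 normalized counts in AML replicate 5, and the other AML libraries had 55.5 to 75.1. Prdm16 had 74.4 normalized counts in AML replicate 7, and the other AML libraries had 17.0 to 40.5. Lmo2 had 1610 normalized counts in whole marrow replicate 1, and the other whole marrow libraries had 2911 to 3055. That library was low over the table as a whole. TMM scaling divided it by 0.472, and the other whole marrow libraries by 0.790 to 0.816. The part of this in the Lmo2 value was not tested.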

How the results depend on the processing

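Against lineage-negative marrow the count of members called lower in AML was 8, and between 7 and 9 under all alternatives run. The count called higher in AML than in whole marrow, 1 as deposited, was 2 with a pseudocount of 0.1, 0 with TMM scaling, 0 with median-centred libraries and 3 with background subtracted, and ran from 1 to 2 when each library was left out. The count called lower, 2 as deposited, was 4 with TMM and 5 with median-centred libraries. Lineage-negative against whole marrow gave 7 members higher, and 4 with either of these scalings. Subtracting background turned 3 differences between AML and whole marrow from lower to higher, to 2.68 for Mecom, 0.22 for Hlf and 0.61 for Prdm16. With 1 library left out at a time, the small difference of Erg in that comparison ran from −0.19 to 0.061 and that of Hlf from −0.43 to 0.087. Tal1 between the normal groups was −0.39 with TMM and −0.39 with median-centred libraries. Among ratios, Lmo2 to Ldb1 against lineage-negative marrow ran from −0.17 to 0.0042 as each library was left out, and Mycn to Myc against whole marrow from −0.47 to 0.14. With background subtracted the latter was 0.35. Mecom to Prdm16 against whole marrow was 2.07 with background subtracted (exact p = 0.0303), where Mecom was set to 0 in whole marrow replicates 1 and 3. The cause of these moves was not tested. Among log2 differences of single members, 282 kept their direction and side of the threshold as each library was left out, 13 gained a call and 5 changed sign. Under the other alternatives 263 kept both, 11 gained a call, 8 lost it and 5 changed sign.

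Samples that share a replicate number did not deviate together: the correlations ran from −0.288 to 0.171, so the numbers do not show a pairing. With the replicate number as a block, AML was called lower in Mecom against whole marrow, at −1.07, and in Erg against lineage-negative marrow, at −1.17, and no other call of a member changed. Depth limits the low genes most: Mecom in AML rests on 7 to 34 estimated reads a library and Mycn in whole marrow on 11 to 38. No interval was computed for these, since the reads are estimates.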
